A study of Homo sapiens with 6 samples.

Results

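The 35 genes described here encode aminoacyl-tRNA synthetases, 19 of the cytosol and 16 of the mitochondria. They were taken by gene symbol from the 27852 symbols of the deposited table, and not by a limit on any measured value. Earlier results of these data were known when they were chosen. A symbol that ends in 1, FARSA and FARSB were counted as cytosolic, and a symbol that ends in 2 as mitochondrial. All 35 were present and passed the filter on low values, which kept 13236 genes. The RNA came from cultured human cells of the oral squamous carcinoma lines HSC3, HSC4 and SAS. Each line was grown in HPLM, a medium composed to resemble human plasma, and in DMEM, a standard culture medium, both with 10% heat-inactivated fetal bovine serum and an antibiotic-antimycotic mix. Poly(A) RNA was sequenced in 6 libraries, 1 for each line and medium.

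An aminoacyl-tRNA synthetase joins an amino acid to its matching tRNA, so that the ribosome can read the genetic code. The cytosolic enzymes serve translation of nuclear genes and the mitochondrial enzymes serve translation of the mitochondrial genome. KARS1 and GARS1 each encode forms for both places, and glutamine is attached in human mitochondria by a detour through glutamate that begins with EARS2. When uncharged tRNA gathers, the kinase GCN2 phosphorylates eIF2alpha, the transcription factor ATF4 is made, and ATF4 is known to raise many cytosolic synthetase genes together with genes of amino acid synthesis and uptake.

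Library totals lay between 17716006 and 20171713 estimated counts. The epithelial label held in each library: the keratin gene KRT5 had 1608, 922 and 511 CPM in HPLM and 2198, 895 and 843 CPM in DMEM (HSC3, HSC4, SAS), and the 10 epithelial markers summed to between 1854 and 5525 CPM. KRT14, the usual partner of KRT5, was low in HSC4, with 10.8 CPM in HPLM and 4.39 CPM in DMEM. Of the other cell types, the 6 fibroblast markers summed to 3.23 to 5.64 CPM in HPLM and 1.78 to 5.97 CPM in DMEM, the 6 leukocyte markers to 3.02 to 5.34 CPM in HPLM and 2.80 to 3.77 CPM in DMEM, and the 4 endothelial markers to 0.308 to 2.49 CPM in HPLM and 0.471 to 1.00 CPM in DMEM. COL3A1, HBB and KDR were listed at 0 in every library. CPM, the usual scaling of counts to library size, was computed here from estimated counts that the authors' processing had already corrected for transcript length, so levels can be set side by side between genes.

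No synthetase gene passed the test between HPLM and DMEM. Of the 35, 0 were called at an adjusted p under 0.05 by edgeR's quasi-likelihood test, and 0 by DESeq2, limma-voom or limma-trend, against 1 of all 13236 genes by edgeR (0.00756%), 127 by DESeq2 (0.96%), 9 by limma-voom (0.068%) and 0 by limma-trend (0%). At an unadjusted p under 0.05, edgeR gave 2 of the 35, DESeq2 1, limma-voom 2 and limma-trend 2. FARSB was the 1 synthetase gene higher in HPLM at that level, where 5.57% of all genes were, and WARS1 the 1 that was lower, where 4.55% of all genes were. Each line had 1 library per medium, so the 3 lines stood in for replicates. The p-values set the mean difference between media against the spread of that difference between lines, with information shared over genes. In such bulk RNA, fewer cells with a transcript and less of it per cell cannot be told apart.

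FARSB encodes the beta subunit of the cytosolic phenylalanine enzyme, which works as a complex with the alpha subunit encoded by FARSA. FARSB lies on chromosome 2 at chr2:222570536-222656337 (GENCODE 29, GRCh38). Where 3 values are given together for a medium, they are those of HSC3, HSC4 and SAS in that order. FARSB had 11.4, 11.9 and 16.2 CPM in HPLM, against 8.01, 9.46 and 12.4 CPM in DMEM. Each line was higher in HPLM, but the HSC3 and HSC4 libraries in HPLM lay below the SAS library in DMEM, so the media overlapped. The mean was 13.2 ± 2.65 CPM in HPLM and 9.95 ± 2.23 CPM in DMEM (SD, n = 3 each). The log2 fold change was 0.41 ± 0.13 (SE; edgeR adjusted p = 0.41). FARSA had 101, 113 and 125 CPM in HPLM and 82.1, 103 and 150 CPM in DMEM, with a log2 fold change of 0.06 ± 0.13 (edgeR adjusted p = 0.92). The unadjusted p of FARSB was 0.0178 over the 3 lines, 0.077 without HSC3, 0.0432 without HSC4 and 0.0635 without SAS.

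WARS1, the cytosolic tryptophan enzyme, is known as a gene that interferon gamma induces. It lies at chr14:100333788-100376805 on the minus strand (GENCODE 29, GRCh38). WARS1 had 145, 119 and 180 CPM in HPLM, against 228, 154 and 192 CPM in DMEM. HPLM was lower in each line, and the SAS libraries were close to each other. The mean was 148 ± 30.5 CPM in HPLM and 191 ± 36.8 CPM in DMEM (SD, n = 3 each). The log2 fold change was −0.37 ± 0.12 (SE; edgeR adjusted p = 0.43). The unadjusted p was 0.0243 over the 3 lines, and without HSC3 it was 0.119, with a log2 fold change of −0.23. A longer protein-coding transcript, ENST00000392882, had 5.90, 2.26 and 7.15 CPM in HPLM and 23.4, 8.91 and 8.98 CPM in DMEM, whereas the leading transcript, ENST00000358655, had 62.7, 54.7 and 81.2 CPM in HPLM and 94.6, 66.6 and 86.0 CPM in DMEM. How kallisto split reads between such overlapping transcripts was not tested.

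The promoter of WARS1 is shown for the interferon-stimulated response element, a site that interferon-activated factors are known to bind, since the interferon-responsive genes are set beside WARS1. The search used the core of the element (GAAA, any 2 bases, GAAA, on both strands) in the 250 bases before and 50 bases after each RefSeq gene start (GRCh38.p14). It was found in WARS1 and EARS2 among the synthetase genes and in 4.38% of all 27305 genes with a promoter. Another RefSeq start of WARS1, with the window chr14:100376278-100376577, had no match. The WARS1 stretch below is chr14:100375363-100375432, minus strand, with the core in capitals, beginning 55 bases before the RefSeq start at 100375347.
WARS1: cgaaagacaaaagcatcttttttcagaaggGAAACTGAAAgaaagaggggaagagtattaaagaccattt

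Of the 13 interferon-responsive genes measured, 0 passed adjustment. At an unadjusted edgeR p under 0.05, 6 were lower in HPLM, against 4.55% of all genes. The smallest p-values were those of the antiviral genes OASL (log2 fold change −1.83 ± 0.42), IFIT2 (−1.15 ± 0.27), IFI44 (−1.27 ± 0.36) and IFIT1 (−1.59 ± 0.51). Another listed gene, ISG15, was not analysed here. For these genes HSC3 had a median log2 ratio of HPLM over DMEM of 0.17, HSC4 one of −1.59 and SAS one of −0.41. WARS1 had its lowest ratio, −0.65, in HSC3, and −0.37 and −0.09 in HSC4 and SAS. The HSC3 median of the interferon-responsive genes changed sign, to −0.10, with coding transcripts alone. Their part in the WARS1 values was not tested.

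**Figure D1:**
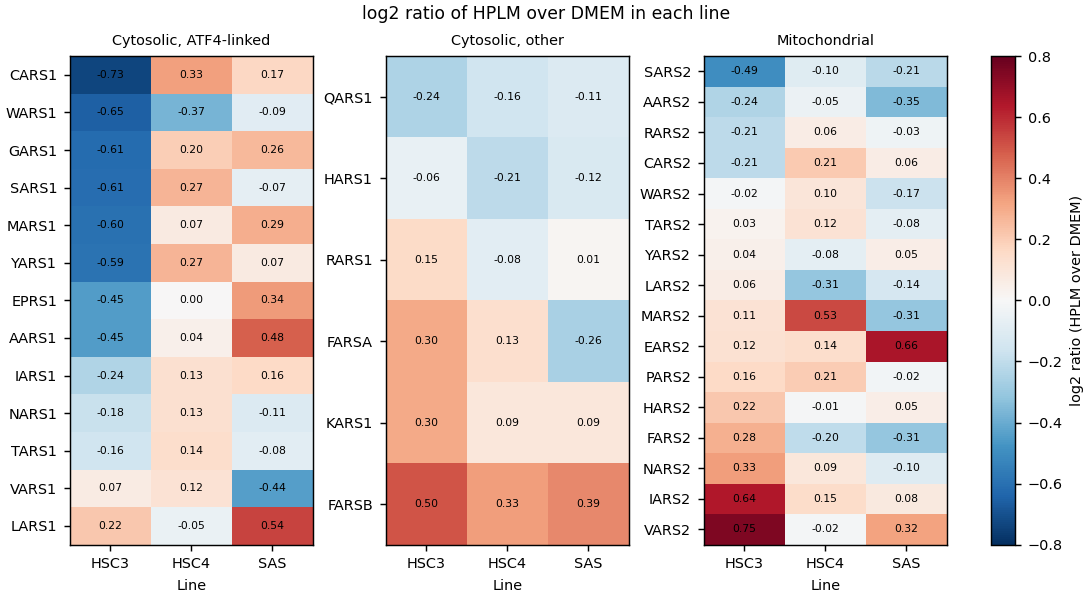
Log2 ratio of HPLM over DMEM for each of the 35 genes (rows) in each line (columns), from 1 library per medium, in 3 panels for the cytosolic genes known as ATF4-linked, the other cytosolic genes and the mitochondrial genes. Blue is lower and red is higher in HPLM; the blue block is the HSC3 column of the first panel, down to −0.73 for CARS1.

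Directions differed between lines. Of the 35 genes, 4 were higher in HPLM in all 3 lines (FARSB, KARS1, EARS2 and IARS2), where 16.9% of all genes were, and 5 were lower in all 3 lines (HARS1, QARS1, WARS1, AARS2 and SARS2), where 17.2% of all genes were. The largest log2 fold changes after those of FARSB and WARS1 were 0.35 ± 0.16 for the mitochondrial valine gene VARS2, 0.30 ± 0.14 for EARS2 and 0.28 ± 0.13 for IARS2, the mitochondrial glutamate and isoleucine enzymes, with edgeR adjusted p between 0.54 and 0.55. By sums over all transcripts each rested largely on 1 line. Without HSC3 the value was 0.14 for VARS2 and 0.11 for IARS2, and without SAS it was 0.13 for EARS2. With coding transcripts alone the EARS2 log2 ratios were 0.43, 0.21 and 0.36 (HSC3, HSC4, SAS), with the largest in HSC3. Its processed transcript ENST00000564759 had 6.48, 2.16 and 8.22 CPM in HPLM and 7.39, 5.08 and 4.25 CPM in DMEM. SARS2, the mitochondrial serine enzyme, was the only synthetase gene whose libraries did not overlap between media, as 2.64% of all genes did not. SARS2 had 24.2, 23.5 and 22.2 CPM in HPLM, against 34.1, 25.1 and 25.8 CPM in DMEM, a log2 fold change of −0.27 ± 0.12 (edgeR adjusted p = 0.52), and one of −0.16 without HSC3. It shares 1492 bases of the same strand with the annotated gene AC011455.2, so its reads could be split between them.

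The median log2 fold change was −0.05 for the 19 cytosolic genes, 0.02 for the 16 mitochondrial genes and 0.00 for all genes tested. The cytosolic median had opposite signs between lines: HSC3 had −0.24, HSC4 0.12 and SAS 0.07, and without HSC3 the fitted median was 0.10. The mitochondrial medians were 0.09, 0.07 and −0.06. The cytosolic values of HSC3 therefore set the sign of the pooled value.

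In HSC3, 8 cytosolic synthetase genes were lower in HPLM by more than 0.4 on the log2 scale. These were CARS1 at −0.73, WARS1 at −0.65, GARS1 and SARS1 at −0.61, MARS1 at −0.60, YARS1 at −0.59, and AARS1 and EPRS1 at −0.45. The limit of 0.4 was chosen after the values were seen, and the next cytosolic value was −0.24, for IARS1 and QARS1. Among mitochondrial genes SARS2 alone was past it, at −0.49, which makes 9 of 35 against 14.9% of all genes in HSC3. In HSC4 0 of the 35 were below −0.4, against 12% of all genes, and in SAS 1 was, VARS1 at −0.44, against 12% of all genes. The count below −0.4 was also made with coding transcripts alone, and without VARS1 and VARS2, whose coding transcripts averaged 2.78 and 2.37 CPM. HSC3 then had 7 of 33, against 1659 of all 11888 genes with such values. HSC4 had 2 (WARS1 at −0.48 and SARS2 at −0.49), against 1296 of the 11888. SAS had 1 (SARS2 at −0.49), against 1322, while SARS2 had −0.23 in HSC3. Above 0.4 were 3 in HSC3 (FARSB, IARS2 and VARS2, against 12.5% of all genes), 1 in HSC4 (MARS2, against 13.3%) and 3 in SAS (AARS1, LARS1 and EARS2, against 14.9%). These ratios have no replicate, and a difference in response between lines could not be tested with 1 library per line and medium.

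All 8 were among the 13 cytosolic genes listed as known to be induced through ATF4, and 0 of the 6 other cytosolic genes were below −0.4. The list was chosen with earlier results of these data known, and the limit of 0.4 after the values were seen. This split is therefore no independent evidence. HSC3 had a median log2 ratio of −0.45 over the 13, HSC4 one of 0.13 and SAS one of 0.16, against medians of 0.23, 0.00 and −0.05 for the 6 others and of 0.00 for all genes in each line. Summed, the 13 genes came to 1433, 1437 and 1883 CPM in HPLM, against 1894, 1344 and 1796 CPM in DMEM, in the line order HSC3, HSC4, SAS. The DMEM library of HSC3 was thus above both HSC4 libraries, and its HPLM library was level with them. With protein-coding transcripts alone the count was 7, since most of the EPRS1 difference lay in a retained-intron transcript with 3.91 CPM in HPLM and 19.6 CPM in DMEM in HSC3, while its coding transcript had 70.4 and 82.1 CPM.

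GARS1, which makes the glycine enzyme of both compartments, had 104, 128 and 169 CPM in HPLM, against 160, 112 and 142 CPM in DMEM. Its HSC3 pair ran opposite to the other lines, so that the fitted log2 fold change was −0.05 ± 0.18 (edgeR adjusted p = 0.95). CARS1, the cytosolic cysteine enzyme, had 46.0, 28.1 and 35.1 CPM in HPLM and 76.5, 22.4 and 31.2 CPM in DMEM. YARS1, the cytosolic tyrosine enzyme, had 124, 44.6 and 112 CPM in HPLM and 187, 37.0 and 106 CPM in DMEM. In both, the DMEM library of HSC3 was the highest of the 6. SARS1, the cytosolic serine enzyme, had 142, 222 and 155 CPM in HPLM and 216, 183 and 163 CPM in DMEM, with HSC4 in HPLM at the top. MARS1, the cytosolic methionine enzyme, had 139, 90.6 and 118 CPM in HPLM and 211, 86.0 and 96.1 CPM in DMEM.

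AARS1, the cytosolic alanine enzyme, had 56.5, 85.0 and 114 CPM in HPLM and 77.0, 82.5 and 81.8 CPM in DMEM, so the DMEM libraries were alike and the HPLM libraries spread to both sides. EPRS1, which attaches both glutamate and proline, had 75.0, 77.8 and 107 CPM in HPLM and 102, 77.6 and 84.4 CPM in DMEM. IARS1, the cytosolic isoleucine enzyme, had 88.2, 83.6 and 182 CPM in HPLM and 104, 76.5 and 163 CPM in DMEM, a log2 fold change of 0.02 ± 0.11 (edgeR adjusted p = 0.97). Its media differed by less than its lines did, and the sign of its fold change turned without scaling factors (−0.033). MARS1 shares 355 bases with DDIT3 on the opposite strand of chromosome 12. The libraries were strand-specific per the labels, whether strand was used in counting is not given in the sources used here, and DDIT3 had log2 ratios of −0.51, 0.69 and 0.69 in the 3 lines.

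The promoters of these genes are shown for the ATF4 composite element, a C/EBP and ATF half-site pair through which ATF4 is known to act. Its core, TGATGNAA, was searched on both strands in the same windows of 300 bases, which RefSeq gave for 30 of the 35 genes, not for LARS1, VARS1, YARS1, AARS2 and VARS2. It was found in 7 of 16 cytosolic genes (43.8%), 1 of 14 mitochondrial genes (7.14%) and 4.46% of all genes. All 7 were among the 10 ATF4-linked genes with a promoter, a list drawn from prior knowledge of ATF4 targets, so that this overlap is no independent evidence. The windows below run 5′ to 3′ on the strand of the gene (GRCh38.p14), with the core in capitals. They are chr5:33440937-33440994 for TARS1, chr7:30594815-30594882 for GARS1, chr12:57488034-57488097 for MARS1 on the plus strand, and chr9:92293673-92293740 for IARS1, chr11:3057394-3057455 for CARS1, chr16:70289656-70289723 for AARS1, chr18:57621807-57621852 for NARS1 and chr12:32756057-32756124 for the mitochondrial YARS2 on the minus strand.
TARS1: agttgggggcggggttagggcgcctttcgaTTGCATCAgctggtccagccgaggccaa
GARS1: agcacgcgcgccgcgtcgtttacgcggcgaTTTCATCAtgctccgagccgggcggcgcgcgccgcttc
MARS1: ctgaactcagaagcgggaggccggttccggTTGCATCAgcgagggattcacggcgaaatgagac
IARS1: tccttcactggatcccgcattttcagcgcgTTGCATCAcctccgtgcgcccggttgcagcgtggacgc
CARS1: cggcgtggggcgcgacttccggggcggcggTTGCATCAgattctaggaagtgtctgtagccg
AARS1: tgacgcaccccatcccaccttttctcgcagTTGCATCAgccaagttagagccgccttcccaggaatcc
NARS1: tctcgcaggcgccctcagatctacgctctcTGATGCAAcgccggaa
YARS2: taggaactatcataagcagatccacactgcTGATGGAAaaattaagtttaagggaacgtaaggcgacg

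The same letters, TTGCATCA, stand in TARS1, MARS1, IARS1, CARS1 and AARS1, and NARS1 carries them on the other strand. With a C at the free base (TGATGCAA, a part of the first motif, looked at after the sequences were seen) the core was in 6 of 16 cytosolic genes (37.5%), 0 of 14 mitochondrial genes and 1.08% of all genes. In 5 of the cytosolic genes the core lay close to the start: its first base was 33 bases before it in GARS1, 13 before in IARS1, 4 before in MARS1, 2 before in CARS1, and at base 3 in TARS1, counted from 1 at the start. In NARS1 it began at base 15 and in AARS1 187 bases before the start. The distances in TARS1, GARS1 and CARS1 are from the RefSeq start whose window held the core. Each of these genes had another RefSeq start, whose window had no match. The HSC3 log2 ratios of the cytosolic genes with the core ranged from −0.73 for CARS1 to −0.16 for TARS1, with IARS1 (−0.24) and NARS1 (−0.18) above −0.4, and the mitochondrial YARS2 had 0.04. EPRS1, SARS1 and WARS1 had no match in the window and ratios of −0.45, −0.61 and −0.65. The E-box CACGTG, searched in the same way, was in 1 of 16 cytosolic genes (IARS1), 3 of 14 mitochondrial genes (CARS2, EARS2 and MARS2) and 8.77% of all genes.

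The genes that ATF4 is known to drive outside the synthetase family, together with ATF4 itself, are here called amino acid response genes. They are set beside these values. Of 18 in the list, 15 had a RefSeq promoter. The core TGATGNAA was in 4 of these 15 (26.7%), against 4.46% of all genes. With a C at the free base it was in 1 of the 15 (6.67%), against 1.08% of all genes. Of the 18, 17 were tested between media. By edgeR 0 passed adjustment. At an unadjusted p under 0.05, 1 was higher and 4 were lower in HPLM, against 5.57% and 4.55% of all genes. DESeq2 called SLC7A5 and SLC7A11 lower (adjusted p = 0.0282 and 0.042), which limma-voom and limma-trend did not. The smallest p-values were those of the transcription factor gene ATF3 (log2 fold change 1.19 ± 0.26), the large neutral amino acid transporter SLC7A5 (−0.37 ± 0.09), the cystine transporter SLC7A11 (−1.69 ± 0.54) and SLC3A2, the heavy chain that both transporters share (−0.34 ± 0.13). HSC3 had a median log2 ratio of −0.70 over the 17, HSC4 one of 0.10 and SAS one of 0.20. Of the 17, 13 were below −0.4 in HSC3, against 14.9% of all genes. ASNS, asparagine synthetase, chosen after its values were seen, had 14.4, 64.5 and 95.6 CPM in HPLM and 108, 56.9 and 57.9 CPM in DMEM. ATF4, counted like ASNS among the 13, had 265, 215 and 367 CPM in HPLM and 364, 200 and 261 CPM in DMEM. HSC3 in HPLM was below HSC3 in DMEM in both genes, whereas HSC4 and SAS in HPLM were above DMEM. The part of ATF4 in the synthetase values was not tested.

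**Figure D2:**
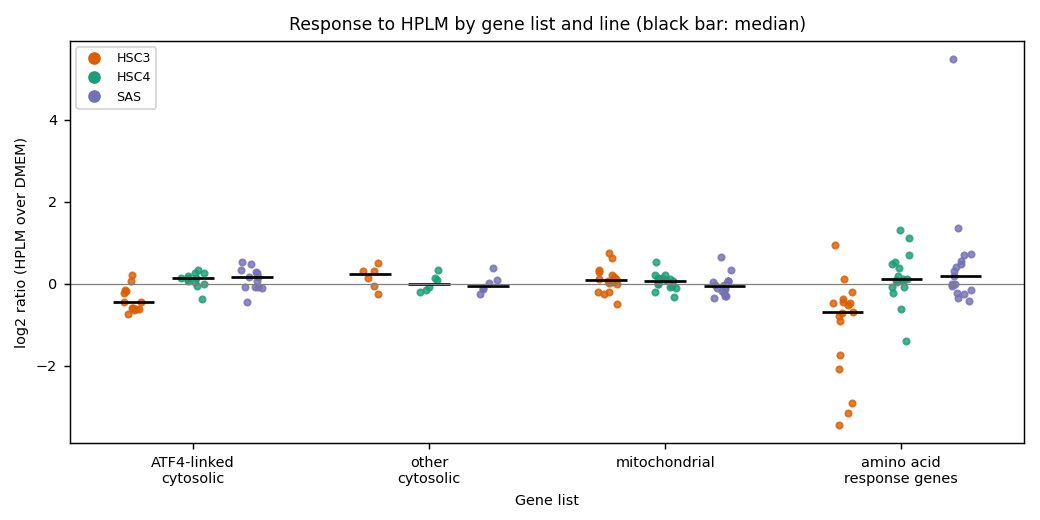
Log2 ratio of HPLM over DMEM per gene (points) by gene list and line, with medians as black bars. In HSC3 the ATF4-linked synthetases (median −0.45) and the amino acid response genes (−0.70) lie below 0, and the other medians lie between −0.06 and 0.23; the SAS point at 5.49 is CHAC1, listed at 0 in DMEM, whose ratio depends on the prior count of 2.

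No list of synthetase partners held a gene that passed adjustment. The 7 synthetases of the multi-enzyme complex (EPRS1, IARS1, KARS1, LARS1, MARS1, QARS1 and RARS1) had a median log2 fold change of 0.02, and its 3 scaffold genes (AIMP1, AIMP2 and EEF1E1) had fold changes between −0.04 and 0.01. Class I and class II enzymes, which differ in the fold of their catalytic domain, had medians of −0.03 over 19 genes and −0.01 over 16. EPRS1, which attaches both glutamate and proline, was counted in class I only. Of 7 genes for tRNA end repair, export and proofreading 0 passed adjustment. XPOT, the nuclear export receptor of tRNA, named after its values were seen, had 73.0, 53.0 and 56.0 CPM in HPLM and 118, 41.3 and 54.1 CPM in DMEM, and was lower in HSC3 alone, by a log2 ratio of −0.70.

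The 6 genes of cytosolic tRNA delivery and elongation had a median of 0.03, with 0 called. EEF1A1, the main factor that brings charged tRNA to the ribosome, had a log2 fold change of −0.18 ± 0.09 (edgeR adjusted p = 0.55). EEF1A2, its tissue-specific copy, had 0.564, 2.32 and 48.7 CPM in HPLM and 0.576, 1.10 and 24.7 CPM in DMEM, a log2 fold change of 0.87 ± 0.21 (edgeR adjusted p = 0.36). The 4 mitochondrial factors TUFM, TSFM, GFM1 and GFM2 had a median of 0.07, and the 4 genes of the mitochondrial glutamine and formyl-methionine routes (GATB, GATC, QRSL1 and MTFMT) one of 0.01. Of 12 amino acid transporter genes, with a median of −0.26, 0 passed adjustment by edgeR. At an unadjusted p under 0.05, 3 were lower, against 4.55% of all genes. SLC7A5 and SLC7A11, called by DESeq2, are among them. By line, HSC3 had a median ratio of −0.60, HSC4 one of 0.11 (−0.08 with coding transcripts alone) and SAS one of −0.21.

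Cytosolic synthetase RNA was several times more abundant than mitochondrial. The 19 cytosolic genes summed to 2078, 2117 and 2762 CPM in HPLM and 2510, 2028 and 2705 CPM in DMEM. The 16 mitochondrial genes summed to 439, 442 and 422 CPM in HPLM and 412, 420 and 419 CPM in DMEM. The mitochondrial sum was nearly the same in every library, while the cytosolic sum was highest in SAS and, within HSC3, lower in HPLM. The ratio of the sums was 4.74 in HPLM and 6.10 in DMEM for HSC3. For HSC4 it was 4.79 and 4.83, and for SAS 6.54 and 6.46. The median gene had 86.0 to 125 CPM in the cytosolic set and 18.3 to 24.7 CPM in the mitochondrial set, against 14.9 to 16.0 CPM over all tested genes.

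**Figure D3:**
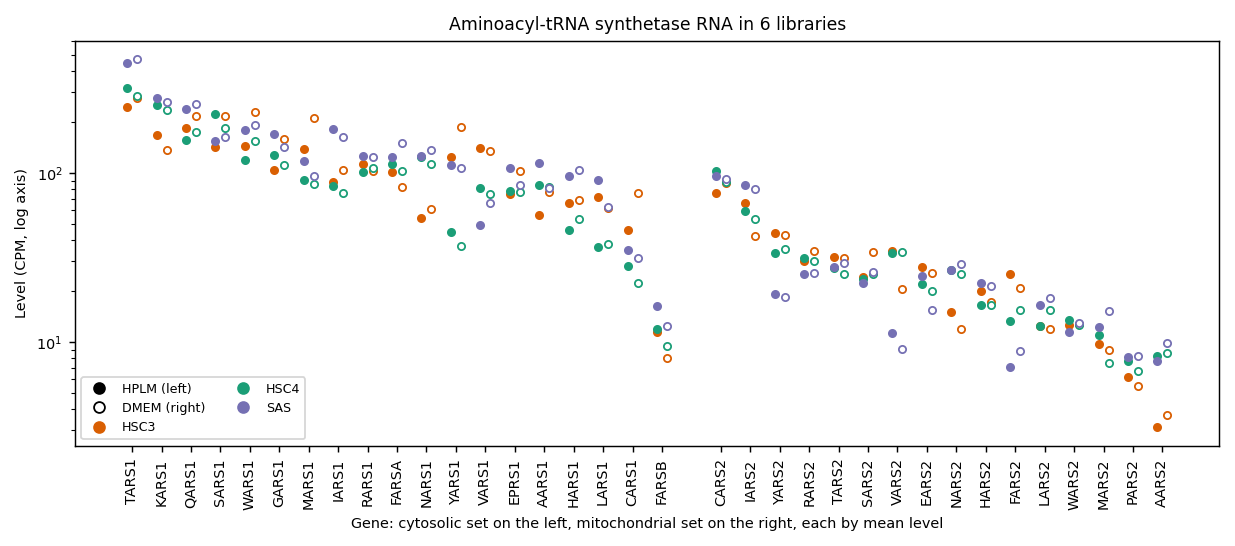
Level of each synthetase gene in CPM (log axis) in the 6 libraries, cytosolic genes left and mitochondrial genes right, each ordered by mean level, with HPLM as filled and DMEM as open circles and colours for lines. TARS1 stands at the top (mean 340 CPM), FARSB lies apart below the other cytosolic genes (11.6 CPM), and AARS2 in HSC3 is the lowest point (3.13 CPM).

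TARS1, the threonine enzyme, was the most abundant by the sum over all transcripts, with 246, 316 and 445 CPM in HPLM and 276, 286 and 471 CPM in DMEM. KARS1 had 168, 251 and 279 CPM in HPLM and 136, 235 and 262 CPM in DMEM, and was higher in HPLM in each line (log2 fold change 0.16 ± 0.09, edgeR adjusted p = 0.59). QARS1, the glutamine enzyme, had 184, 157 and 238 CPM in HPLM and 218, 175 and 257 CPM in DMEM, and was lower in each line (−0.17 ± 0.08, edgeR adjusted p = 0.55). The ranges of KARS1 and QARS1 overlapped, and so did those of each with TARS1. At the lower end FARSB averaged 11.6 CPM, CARS1 39.9 CPM and LARS1, the leucine enzyme, 60.3 CPM over the 6 libraries. LARS1 had 71.8, 36.5 and 91.2 CPM in HPLM and 61.7, 37.8 and 62.6 CPM in DMEM. FARSA, the partner of FARSB in the same complex, averaged 112 CPM.

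Among mitochondrial genes CARS2, the cysteine enzyme, was highest, with 75.8, 102 and 95.5 CPM in HPLM and 87.6, 88.1 and 91.6 CPM in DMEM. IARS2 had 66.3, 59.2 and 84.5 CPM in HPLM and 42.6, 53.5 and 80.1 CPM in DMEM, and was above DMEM in each line. YARS2, the tyrosine enzyme, had 44.1, 33.6 and 19.1 CPM in HPLM and 42.9, 35.5 and 18.5 CPM in DMEM, so that its lines stood apart and its media did not. The lowest were AARS2, PARS2 and MARS2, the alanine, proline and methionine enzymes. AARS2 had 3.13, 8.27 and 7.69 CPM in HPLM and 3.72, 8.55 and 9.86 CPM in DMEM. PARS2 had 6.16, 7.73 and 8.11 CPM in HPLM and 5.50, 6.69 and 8.24 CPM in DMEM. MARS2 had 9.70, 10.9 and 12.3 CPM in HPLM and 8.95, 7.55 and 15.2 CPM in DMEM, and these low ranges overlapped with each other.

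Several other genes varied less. RARS1, the cytosolic arginine enzyme, lay between 101 and 126 CPM, and the mitochondrial tryptophan, threonine and arginine genes WARS2, TARS2 and RARS2 had highest to lowest ratios of 1.17, 1.26 and 1.38 over the 6 libraries. LARS2 lay between 11.9 and 18.2 CPM and EARS2 between 15.5 and 27.6 CPM. The widest span was that of YARS1, 5.04-fold.

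For the 17 pairs of a cytosolic and a mitochondrial gene for the same amino acid, in which EPRS1 and FARS2 each stand in more than 1 pair, the cytosolic gene was higher in every library in 15. The median over pairs of the mean log2 ratio was 2.02, a 4.07-fold excess. CARS1 and CARS2 were the reverse: their ratio lay between 0.255 and 0.873 in the 6 libraries. FARSB over FARS2, the mitochondrial phenylalanine enzyme, was between 0.385 and 2.30 and above 1 in SAS only. WARS1 over WARS2 had the highest mean log2 ratio, 3.71, by sums over all transcripts, and ranged from 8.84 to 17.8. With the highest transcript of each gene alone it was 3.46, below AARS1 over AARS2 at 3.65.

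**Figure D4:**
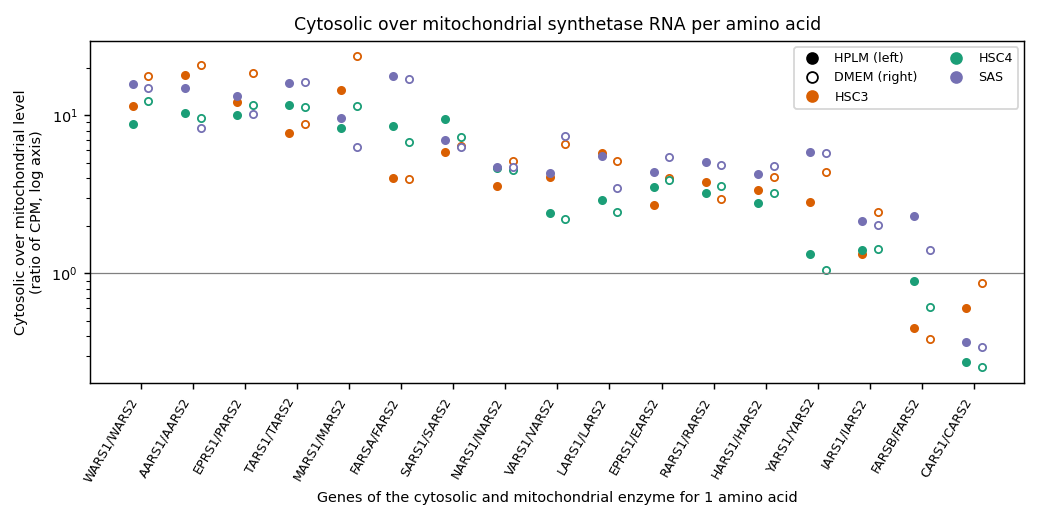
Ratio of the cytosolic to the mitochondrial gene for the same amino acid in each library (log axis), HPLM filled and DMEM open, colours for lines, ordered by mean log2 ratio. Of 17 pairs 15 lie above 1 in all libraries, and CARS1 over CARS2 lies below it, between 0.255 and 0.873.

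The pair ratios were lower in HPLM in 13 of 17 pairs in HSC3, in 7 in HSC4 and in 5 in SAS. HSC3 had a median change of −0.51 on the log2 scale, HSC4 one of 0.04 and SAS one of 0.08. In HSC3 the ratio of IARS1 to IARS2 was 1.33 in HPLM and 2.44 in DMEM, with IARS1 lower and IARS2 higher in HPLM, and the ratio of MARS1 to MARS2 was 14.4 in HPLM and 23.6 in DMEM. HARS1 and HARS2, the cytosolic and mitochondrial histidine genes, lie head to head on chromosome 5 and share 437 bases on opposite strands, HARS1 at chr5:140673904-140691862 and HARS2 at chr5:140691426-140699318 (GENCODE 29, GRCh38). HARS1 had 66.6, 46.0 and 95.2 CPM in HPLM and 69.4, 53.2 and 103 CPM in DMEM, a log2 fold change of −0.13 ± 0.09 (edgeR adjusted p = 0.67). HARS2 had 19.9, 16.5 and 22.4 CPM in HPLM and 17.1, 16.6 and 21.5 CPM in DMEM, one of 0.09 ± 0.11 (edgeR adjusted p = 0.83). Their ratio was lower in HPLM in every line, by 0.28, 0.20 and 0.17 on the log2 scale, from 1 library per medium. The ratio of EPRS1 to EARS2 was lower in every line too, by 0.57, 0.14 and 0.32, and 3 of the 17 pair ratios (FARSA and FARSB over FARS2, and LARS1 over LARS2) were higher in every line.

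More synthetase genes differed between lines than between media. At an edgeR adjusted p under 0.05, 11 of the 35 genes differed between HSC3 and HSC4 (7 higher and 4 lower in HSC3), against 37.4% of all genes. Between HSC3 and SAS 17 differed (6 higher and 11 lower in HSC3), against 39.4%, and between HSC4 and SAS 10 (3 higher and 7 lower in HSC4), against 41.3%. In at least 1 of the 3 comparisons 20 of the 35 were called (57.1%), against 63.0% of all genes, so the family was near the background. HARS1 and FARS2 were called in all 3. Each line had 2 libraries, 1 per medium, and the labels do not say whether they came from separate cultures. Leaving out HSC4 from the fit brought the count between HSC3 and SAS to 12.

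**Figure D5:**
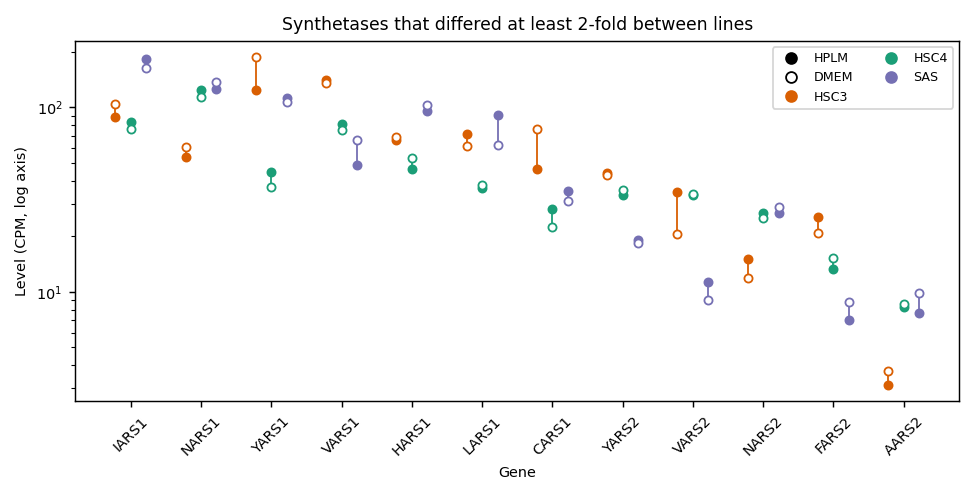
Level in CPM (log axis) of the 12 synthetase genes that differed by a log2 fold change of 1 or more between 2 lines at an edgeR adjusted p under 0.05, HPLM filled and DMEM open, joined within a line. YARS1 in HSC4 (44.6 and 37.0 CPM) and VARS2 in SAS (11.3 and 9.05 CPM) stand apart from the other lines.

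HSC3 had more YARS1 than HSC4, with 124 and 187 CPM (HPLM, DMEM) against 44.6 and 37.0 CPM, a log2 fold change of 1.92 ± 0.22 (edgeR adjusted p = 0.00225), and HSC4 had less than SAS, whose libraries had 112 and 106 CPM (−1.42 ± 0.22, adjusted p = 0.00468). CARS1 was higher in HSC3 than in HSC4, by 1.26 ± 0.26 (adjusted p = 0.014), with 46.0 and 76.5 CPM against 28.1 and 22.4 CPM. Both values contain the large HSC3 difference between media given above. NARS1, the cytosolic asparagine enzyme, was lower in HSC3, with 53.7 and 60.8 CPM, than in HSC4, with 124 and 114 CPM (−1.06 ± 0.12, adjusted p = 0.0023), and than in SAS, with 126 and 136 CPM (−1.20 ± 0.12, adjusted p = 0.00148). NARS2, its mitochondrial counterpart, ran the same way, with 14.98 and 11.9 CPM in HSC3, against 26.8 and 25.1 CPM in HSC4, while SAS had 26.8 and 28.8 CPM. Its log2 fold change of HSC3 over SAS was −1.05 ± 0.15 (adjusted p = 0.00396). AARS2 was also lowest in HSC3 (−1.30 ± 0.21 against HSC4 and −1.35 ± 0.21 against SAS, adjusted p = 0.0059 and 0.00472).

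HSC4 had less IARS1, HARS1 and LARS1 than SAS. HSC4 was below SAS by 1.11 ± 0.14 for IARS1 (83.6 and 76.5 CPM against 182 and 163 CPM), 1.00 ± 0.11 for HARS1 and 1.03 ± 0.16 for LARS1, with edgeR adjusted p of 0.00251, 0.00168 and 0.00529. FARS2 and YARS2 ran the other way. FARS2 had 25.3 and 20.8 CPM in HSC3, against 13.3 and 15.3 CPM for HSC4 and 7.05 and 8.78 CPM for SAS, and HSC3 was above SAS by 1.55 ± 0.19 (adjusted p = 0.00262). YARS2 was above SAS in HSC3 by 1.21 ± 0.12 (adjusted p = 0.00132). The mitochondrial IARS2 did not follow them, being lower in HSC3 and in HSC4 than in SAS (−0.62 ± 0.16 and −0.55 ± 0.16, adjusted p = 0.0278 and 0.039).

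VARS2 had 34.6 and 20.6 CPM in HSC3, against 33.6 and 34.0 CPM for HSC4 and 11.3 and 9.05 CPM for SAS, and was above SAS by 1.41 ± 0.21 in HSC3 and 1.75 ± 0.21 in HSC4 (edgeR adjusted p = 0.00412 and 0.0023). VARS1, the cytosolic valine gene, had 141 and 135 CPM in HSC3, against 81.3 and 74.9 CPM for HSC4 and 48.8 and 66.4 CPM for SAS, and HSC3 was above SAS by 1.27 ± 0.16 (adjusted p = 0.00288). Both genes lie in the major histocompatibility region of chromosome 6, 851058 bases apart. The table listed 86 transcripts for VARS1 and 70 for VARS2, of which 14 and 10 were in the GENCODE 29 primary assembly, and these carried 1.17% to 12.6% of the VARS1 level and 4.31% to 28.3% of the VARS2 level. The other identifiers are outside that annotation. How far line differences in these 2 genes follow from the way reads were shared among them was not tested.

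The transcript values add detail on which forms were counted. KARS1 was led by ENST00000302445, with a coding sequence of 1791 bases, the length of the cytosolic form, at 73.7% to 82.2% of the gene. ENST00000319410, with a coding sequence of 1875 bases, is the longer form that carries the mitochondrial targeting sequence. In HSC3 it held 22.8% in HPLM and 17.6% in DMEM. The shares were 17.2% and 15.7% for HSC4, and 15.8% and 14.97% for SAS. The HPLM share was the higher in each line, with 1 library per medium. QARS1 was led by a processed transcript with no coding sequence, and coding transcripts held 35.5% to 39.9% of its level. For TARS1 coding transcripts held 54.0% to 61.7%, and by coding transcripts alone KARS1 (mean 217 CPM) was above TARS1 (mean 199 CPM) on average, though below it in HSC3 and SAS in DMEM. For IARS2 they held 98.0% to 100%. Levels of all genes here are sums over all their transcripts and so overstate coding RNA for QARS1, TARS1 and others. Coding shares were 54.5% to 65.2% for WARS1, 67.5% to 72.6% for MARS1 and 68.6% to 76.5% for YARS1. They were 48.3% to 77.1% for SARS2 and 50.8% to 70.3% for EARS2.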

How the data were processed

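Polyadenylated RNA was selected and made into strand-specific libraries, per the labels' protocols. The submitters' processing notes name FastQC, kallisto and hg38, without versions. The authors deposited a transcript table of expected counts, named scaled TPM. Its values are corrected for transcript length, so they are estimated counts and not reads, and no counting interval is given. Columns taken for DMEM bear the name of the line and a suffix of unknown meaning.

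The 1312 repeated rows (at most 0.27% of a library) were counted once, 6878 transcripts without a symbol (0.362% to 0.479%) were dropped, and the rest were summed to 27852 symbols and rounded. edgeR 4.0.16 in R 4.3.3 kept 13236 genes by filterByExpr (minimum count 10, minimum total 15), scaled by TMM, and fitted the quasi-likelihood test with line and medium as terms, with 2 residual and 4 prior degrees of freedom. Benjamini-Hochberg adjustment ran over all genes, with a call at 0.05. A standard error is the size of the log2 fold change divided by the root of F. Ratios within a line are log2 CPM differences at a prior count of 2. limma 3.58.1 and DESeq2 1.42.0 were alternatives, and the fit was tested on simulated data. The line pairs the libraries: after the mean of each medium was subtracted, the correlation within a line was 0.820 (HSC3), 0.831 (HSC4) and 0.842 (SAS).

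Positions and transcript types came from GENCODE 29, promoters from RefSeq (GRCh38.p14). Members and gene lists were chosen with earlier results of these data known. Per-library values were given for genes at an unadjusted p under 0.05 between media, for those called with a log2 fold change of at least 1 between lines, for the 3 highest and 3 lowest of each compartment, and for WARS1, IARS1, GARS1, KARS1, HARS1 and HARS2, with up to 4 genes of other lists by smallest p. AARS1, EPRS1, MARS1, SARS1, SARS2, FARSA and the other genes given with values were added after their values were seen.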

Additional observations from a re-analysis of the deposited data

Results flagged for a closer look

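In 7 of the 35 genes 1 line had a log2 ratio of HPLM over DMEM beyond 0.4 in size and both other lines had ratios of the opposite sign, as in 15.3% of all genes tested (2025). In HSC3 the log2 ratio was −0.45 for AARS1 (0.04 in HSC4, 0.48 in SAS), −0.73 for CARS1 (0.33 and 0.17), −0.45 for EPRS1 (0.00 and 0.34), −0.61 for GARS1 (0.20 and 0.26), −0.60 for MARS1 (0.07 and 0.29) and −0.59 for YARS1 (0.27 and 0.07). In SAS it was −0.44 for VARS1 (0.07 in HSC3, 0.12 in HSC4). With 1 library per line and medium these differences between lines were not tested.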

How the results depend on the processing

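No synthetase gene was called between HPLM and DMEM under any of the 13 alternatives run, among them other scalings, no filter, DESeq2, limma-voom, limma-trend, coding transcripts alone and leaving out each line, while 0 to 4 genes had an unadjusted p under 0.05. Without the replicate block by line 0 were called as well, and the medians were −0.03 for cytosolic and 0.03 for mitochondrial genes. Leaving out a line gave cytosolic medians from −0.14 to 0.10 and mitochondrial medians from −0.01 to 0.06, and without scaling factors the mitochondrial median was −0.03. The fold change of GARS1 ran from −0.21 to 0.23 when a line was left out and that of IARS1 from −0.058 to 0.14, with −0.033 for IARS1 without scaling factors; the cause was not tested. Counts between lines stayed within 1.5 times of those given. The median log2 ratio of cytosolic over mitochondrial levels was 2.38 with the highest transcript of each gene alone, which leaves out all other transcripts. Leaving out a line moved EARS2 between 0.13 and 0.40, IARS2 between 0.11 and 0.39, and VARS2 between 0.14 and 0.55. The coding-transcript fits and the HSC3 count (8 without scaling factors and with a prior count of 0.5, 7 with coding transcripts) were chosen after seeing the data. With 1 library per line and medium, a response of a single line has no error.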
